A study of Mus musculus with 8 samples.

Results

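The collagen- and laminin-binding integrins are described here through 8 genes, Itga1, Itga2, Itga10 and Itga11 for the collagen-binding α subunits, Itga3, Itga6 and Itga7 for the laminin-binding α subunits, and Itgb4 for the β subunit that pairs with α6. They were chosen by gene symbol. All 8 had a row among the 13687 genes of the table, and all 8 passed the filter on low values that left 13665 genes for testing. The 8 RNAseq libraries are from mesothelial cells (MCs) taken from the peritoneum of 2 WT and 2 CAV1-/- mice, where each animal gave 1 static culture and 1 culture stretched for 24 h. The 4 groups of 2 cultures are therefore WT static, WT stretch, CAV1-/- static and CAV1-/- stretch, and replicate 1 or 2 stands for the same animal in both cultures of a genotype. The CAV1-/- mice (B6.Cg-CAV1tm1mls/J) lacked Cav1 in the germ line, and the WT mice were their littermates. The MCs came from trypsin-digested parietal peritoneum and were grown to confluence before the stretch. The animals' age, the sex of each animal and the stretch amplitude and plate coating for mouse cells are not given in the sources used here.

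Integrins are cell surface receptors of 1 α and 1 β chain that tie the extracellular matrix to the cytoskeleton and carry force in both directions. The collagen-binding α chains share an inserted domain that grips the collagen triple helix, and they pair with β1, encoded by Itgb1. The laminin-binding α chains hold cells to basement membranes, again with β1, while the pair of α6 and β4 links laminin to keratin filaments in hemidesmosomes. MCs line the peritoneum as a flat epithelium on a thin basement membrane of laminin and collagen IV, and in mesothelial-to-mesenchymal transition (MMT) they leave it for a stroma of fibrillar collagen. The study asked how cyclic stretch and loss of caveolin-1, the coat protein of caveolae, act on this transition.

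Library totals lay between 9777738 and 21203938 reads, and each stretched library was deeper than the static library of the same animal. Values are TMM-normalized CPM (read counts scaled to library size), for which 3 reads correspond to 0.146 to 0.308 CPM. Cav1, the targeted gene, had 764 and 275 CPM in WT static cultures, 570 and 247 in WT stretch, 34.5 and 18.9 in CAV1-/- static, and 20.0 and 12.8 in CAV1-/- stretch, so that each CAV1-/- library lay below each WT library. The summed level of the 12 mesothelial markers with a row, of 13 listed, was 3115 to 4115 CPM in WT and 924 to 1177 CPM in CAV1-/- libraries, and 10 of these 12 genes were lower in each CAV1-/- than in each WT library. Msln, which encodes mesothelin, was at 311 to 581 CPM in WT, at 209 and 193 CPM in CAV1-/- replicate 1 and at 38.0 and 20.4 CPM in CAV1-/- replicate 2. The libraries of CAV1-/- replicate 1 stood apart, since all 11 leukocyte markers with a row, of 12 listed, were higher there than in the other 6 libraries. Their sum was 4468 and 4596 CPM in those libraries against 73.8 to 456 CPM elsewhere, so the genotype differences of the genes named here are also given without this animal, where the lone CAV1-/- culture of each condition is assumed to vary like the other groups. The 6 fibroblast markers were all higher in replicate 2 than in replicate 1 of the same group, with sums of 1314 to 1615 CPM against 71.2 to 812 CPM. In bulk samples, fewer cells of a type and less RNA per cell cannot be told apart.

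Laminin-binding α chains were the more abundant class at the RNA level. Per kb of exon, averaged over the 8 libraries, Itga3 stood at 45.5 ± 20.0 CPM (SD, n = 8), Itga7 at 26.2 ± 8.75 and Itga6 at 8.10 ± 2.57. The collagen-binding genes and Itgb4 were lower, with Itga11 at 1.85 ± 1.90, Itgb4 at 1.26 ± 0.947, Itga10 at 1.17 ± 1.00, Itga1 at 0.627 ± 0.214 and Itga2 at 0.453 ± 0.349 CPM per kb. The partner Itgb1 was at 523 ± 220 CPM per kb, above each of the 8 genes in each library. The ranges of Itga3 (19.2 to 83.3) and Itga7 (15.4 to 37.4) overlapped, as did those of the 5 lowest genes, so the order within these neighbours is within their spread, whereas the lowest Itga7 library lay above the highest Itga6 library (13.4 CPM per kb). The 4 collagen-binding genes made up 1.50% to 8.78% of the summed level per kb of the 7 α genes.

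**Figure D1:**
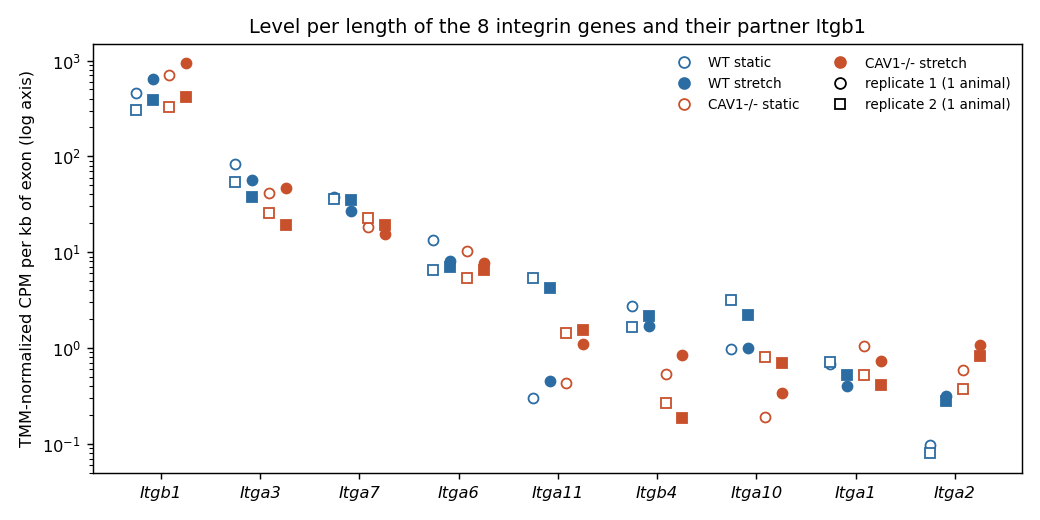
TMM-normalized CPM per kb of exon (log axis) of the 8 integrin genes and Itgb1 in each of the 8 libraries, with open symbols for static and filled symbols for stretched cultures. Itgb1 lies highest, Itga3, Itga7 and Itga6 follow, and the collagen-binding genes and Itgb4 lie lowest, where Itga2 spans 0.0792 to 1.06 CPM per kb.

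Counted over the 8 genes, 1 (Itga2) passed unadjusted p at most 0.05 on stretch in WT MCs, where 2.27% of all genes tested did, and 1 (Itga2) on stretch in CAV1-/- MCs, where 2.09% did. With the animal as a block, 3 members (Itga2, Itga1 and Itga3) passed in WT and 2 (Itga2 and Itga1) in CAV1-/- MCs, but the block also raised the share of all genes to 14.5% and 13.3%. For the average stretch effect, 1 member passed without the block (4.73% of all genes) and 4 with it (21.6%), namely Itga2, Itga1, Itga3 and Itga7. Between genotypes, 3 members passed without stretch, Itga2 higher and Itga7 and Itgb4 lower, where 8.17% of all genes did, and the same 3 passed with stretch, where 6.26% did. These 3 and Itga3, which was lower, passed in both conditions without CAV1-/- replicate 1, where 8.69% and 7.13% of all genes did. Both conditions hold cultures of the same animals, so the genotype calls in them are not separate evidence. After Benjamini-Hochberg adjustment over all genes tested no member passed in any of the 6 comparisons. In that fit 10 genes (0.0732%) passed between genotypes without stretch, 8 (0.0585%) with stretch and 0 in the stretch comparisons, for which the unadjusted shares above stand beside them, and edgeR called 0 and DESeq2 3, 7 and 34 genes in WT, in CAV1-/- and on average. DESeq2 called Itga2 and Itga7 at adjusted p under 0.05 between genotypes in both conditions, where it called 2.26% and 1.73% of all genes, and edgeR called no member and 0.0146% and 0.0439% of all genes.

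Itga2 was higher on stretch in both genotypes and higher in CAV1-/- than in WT MCs. It encodes α2, the chain of the receptor that prefers fibrillar collagen I. Its level was 0.700 and 0.565 CPM in WT static cultures, 2.27 and 1.97 in WT stretch, 4.20 and 2.67 in CAV1-/- static, and 7.57 and 5.91 in CAV1-/- stretch. The groups did not overlap in any of the 4 comparisons, and the static CAV1-/- cultures lay above the stretched WT cultures. The static WT values rest on 10 and 7 reads, with exact 95% Poisson intervals of 0.335 to 1.29 and 0.227 to 1.16 CPM, which cover counting error only and lie below the intervals of the stretched WT cultures (1.66 to 3.03 and 1.35 to 2.78 CPM). The interval of CAV1-/- static replicate 1 (3.13 to 5.53 CPM) lay above those of the stretched WT cultures. That of CAV1-/- static replicate 2 (1.75 to 3.92 CPM) overlapped them, so its place above them is within counting error.

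In WT MCs the group mean of Itga2 was 3.35-fold higher on stretch, with ratios of 3.24 and 3.49 in the 2 animals, and the log2 fold change on the log2(CPM + 1) scale was 0.93 (SE 0.26, 95% interval 0.30 to 1.57, adjusted p = 1, limma). This scale understates the change of a gene at this level. In CAV1-/- MCs the mean was 1.96-fold higher, with ratios of 1.80 and 2.21, and the log2 fold change was 0.82 (SE 0.26, 95% interval 0.18 to 1.45, adjusted p = 1, limma). Both values passed the unadjusted threshold of 0.05, but these calls rest on single libraries. Without WT static replicate 2 or WT stretch replicate 1 the WT value was 0.87 in both cases and no longer passed. Without CAV1-/- static replicate 2 or CAV1-/- stretch replicate 1 the CAV1-/- value was 0.56 or 0.66 and did not pass. The gene also falls below a filter on a mean of at least 5 CPM, under which it is not tested.

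Over both genotypes the average stretch effect on Itga2 was 0.87 (SE 0.18, 95% interval 0.43 to 1.32, adjusted p = 0.984, limma). With the animal as a block, which pairs the static and the stretched culture of 1 mouse, the adjusted p was 0.0217, a threshold that 2.25% of all genes passed in that fit. Itga2 was higher on stretch in 4 of 4 animals, as were 14.5% of all genes tested. The stretch effects of the genotypes differed by -0.12 (95% interval -1.01 to 0.78, limma), and on recovered reads by -0.76 with edgeR and -0.80 (SE 0.77) with DESeq2. None of these passed the unadjusted threshold, and the values differ in size with the scale.

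Between genotypes, the mean of Itga2 was 5.44-fold higher in CAV1-/- than in WT MCs without stretch and 3.18-fold higher with stretch. The log2 fold changes were 1.42 (SE 0.26, 95% interval 0.79 to 2.06, adjusted p = 0.144, limma) and 1.30 (SE 0.26, 95% interval 0.67 to 1.94, adjusted p = 0.284, limma). Each of the 4 CAV1-/- cultures lay above each of the 4 WT cultures, which held for 3.86% of all genes tested. Without CAV1-/- replicate 1, whose libraries carried the high leukocyte markers, the differences were 1.17 and 1.15, and both passed the unadjusted threshold again (limma).

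Itga1 and Itga2 are neighbours on chromosome 13, on the same strand and 20995 bases apart, Itga1 at chr13:114953096-115101964 and Itga2 at chr13:114833081-114932100 (GRCm38, GENCODE M21, minus strand). Their differences between stretched and static cultures had opposite signs in each animal, so the 250 bases before each gene start are shown for comparison, from RefSeq on GRCm38.p6, minus strand, 5′ to 3′, chr13:115101965-115102214 for Itga1 and chr13:114932101-114932350 for Itga2. No annotated gene overlaps either window.
Itga1: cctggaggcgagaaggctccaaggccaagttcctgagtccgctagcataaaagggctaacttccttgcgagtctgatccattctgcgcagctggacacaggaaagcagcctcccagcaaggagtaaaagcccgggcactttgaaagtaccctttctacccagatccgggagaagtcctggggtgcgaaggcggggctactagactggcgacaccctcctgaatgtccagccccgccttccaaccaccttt
Itga2: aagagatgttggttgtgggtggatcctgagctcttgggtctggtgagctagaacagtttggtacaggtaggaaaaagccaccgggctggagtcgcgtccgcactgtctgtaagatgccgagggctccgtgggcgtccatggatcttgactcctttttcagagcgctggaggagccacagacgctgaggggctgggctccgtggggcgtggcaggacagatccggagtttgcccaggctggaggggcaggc
Of 3 motifs searched on both strands, the TEAD motif GGAATG, the palindromic SMAD motif GTCTAGAC and the AP-1 motif TGANTCA, none occurs in these windows. They occur in 12.6%, 0.167% and 6.75% of 32851 promoters of the same table, and their absence here says only that these letters are not in the 250 bases. In the same search over the other matched genes, the TEAD motif occurred before Itga10, as CATTCC 75 to 70 bases upstream, and before Itgb1, as GGAATG 7 to 2 bases upstream.

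Itga1 was lower on stretch in each of the 4 animals. It encodes α1, the chain of the receptor that prefers collagen IV, a basement membrane collagen. Its level was 12.6 and 13.3 CPM in WT static cultures, 7.40 and 9.73 in WT stretch, 19.4 and 9.66 in CAV1-/- static, and 13.5 and 7.55 in CAV1-/- stretch. The WT groups did not overlap, while the CAV1-/- groups did, with replicate 1 above replicate 2 in both conditions. The log2 fold change on stretch was -0.56 in WT (SE 0.39, 95% interval -1.50 to 0.39) and -0.41 in CAV1-/- MCs (SE 0.39, 95% interval -1.35 to 0.54, limma), neither past the unadjusted threshold. With the animal as a block both passed it, with intervals of -0.92 to -0.20 in WT and -0.76 to -0.05 in CAV1-/- MCs. The average over both genotypes was -0.48, and with the block its interval was -0.72 to -0.25 and its adjusted p was 0.0598 (limma). A lower level on stretch in 4 of 4 animals was found for 16.9% of all genes tested. The genotypes overlapped for Itga1 in both conditions, with log2 differences of 0.08 without stretch and 0.23 with stretch that turned to -0.39 and -0.15 without CAV1-/- replicate 1. Itga1 shares 685 exonic bases with Gm49395 on the same strand, a gene with no row in the table, and reads from these bases could be split between the 2 genes.

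Itga10 was lower in CAV1-/- than in WT MCs in each pairing of cultures, but its spread between animals was wide. It encodes α10, a collagen receptor chain best known from cartilage, at chr3:96645584-96664519 on the plus strand. Its level was 5.04 and 16.2 CPM in WT static cultures, 5.13 and 11.5 in WT stretch, 0.989 and 4.21 in CAV1-/- static, and 1.75 and 3.61 in CAV1-/- stretch. Each CAV1-/- culture lay below each WT culture, as for 5.88% of all genes tested, and replicate 2 was 2.07-fold to 4.26-fold above replicate 1 in each group. The log2 difference between genotypes was -1.66 without stretch (SE 0.71, 95% interval -3.40 to 0.07, adjusted p = 0.634, limma) and -1.30 with stretch (SE 0.71, 95% interval -3.03 to 0.43, limma), and neither passed the unadjusted threshold. The value without stretch depended on single libraries. It passed at -2.42 without WT static replicate 1 and at -2.36 without CAV1-/- static replicate 2, and it was -0.97 without CAV1-/- replicate 1. With stretch it was -0.93 without that animal and did not pass. On stretch it differed by -0.22 in WT and by 0.14 in CAV1-/- MCs, with opposite directions in the animals of each genotype. Itga10 shares 1739 exonic bases with Gm42957 on the same strand, so its level is uncertain to that extent.

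Itga11 followed the animal more than the genotype or the stretch. It encodes α11, a fibrillar collagen receptor chain typical of fibroblasts, at chr9:62677826-62783982 on the plus strand. Its level was 1.54 and 27.5 CPM in WT static cultures, 2.32 and 21.6 in WT stretch, 2.23 and 7.30 in CAV1-/- static, and 5.63 and 7.94 in CAV1-/- stretch. Replicate 2 was the higher culture in each group, by 17.9-fold and 9.33-fold in WT and by 3.28-fold and 1.41-fold in CAV1-/- MCs, and the groups overlapped in all 4 comparisons. The log2 differences were 0.03 on stretch in WT and 0.57 in CAV1-/- MCs, and between genotypes -0.72 without and -0.17 with stretch, each with a standard error of 1.35 (limma) and none past the unadjusted threshold. The genotype differences were -0.036 and 0.045 without CAV1-/- replicate 1. The summed fibroblast markers were also higher in replicate 2 in each group, 1615 against 812 CPM in WT static and 1587 against 206 CPM in CAV1-/- static cultures. Dcn, which encodes decorin, ran from 42.6 to 861 CPM and Pdgfra, a fibroblast receptor, from 19.3 to 706 CPM over the 8 libraries. Their part in the spread of Itga10 and Itga11 was not tested.

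**Figure D2:**
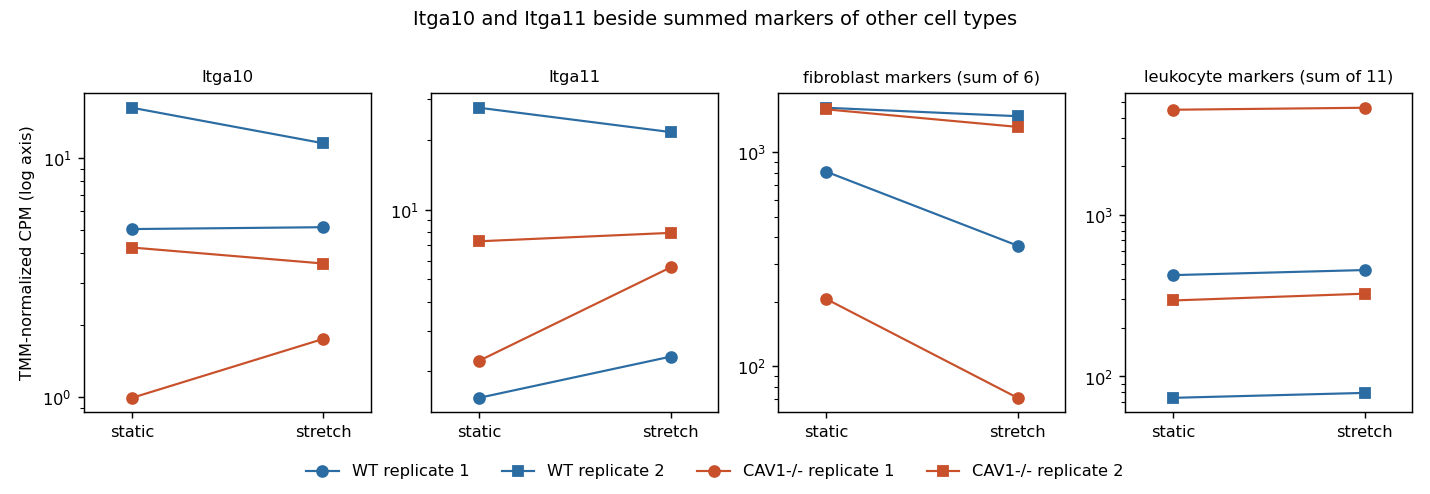
TMM-normalized CPM (log axes) of Itga10 and Itga11 beside the summed levels of 6 fibroblast and 11 leukocyte markers, with a line joining the static and the stretched culture of each animal. Replicate 2 of each genotype lies above replicate 1 for both genes and for the fibroblast markers, and CAV1-/- replicate 1 lies alone at the top of the leukocyte markers (4468 and 4596 CPM).

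Within the collagen-binding class, Itga2 took a larger share in CAV1-/- than in WT MCs and a larger share on stretch than without it, in each animal. Of the summed level per kb of the 4 genes, Itga2 made up 4.79% and 0.853% in WT static cultures, 14.7% and 3.82% in WT stretch, 26.1% and 12.0% in CAV1-/- static, and 32.9% and 23.8% in CAV1-/- stretch. The genotypes did not overlap within a condition, although the WT stretched culture of replicate 1 lay above the CAV1-/- static culture of replicate 2. Itga11 and Itga10 together made up the largest part in WT replicate 2, 57.8% and 33.7% without stretch.

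Itga7 was lower in CAV1-/- than in WT MCs with the smallest spread of the members that passed the unadjusted threshold. It encodes α7, the laminin receptor chain best known from muscle, at chr10:128933818-128958282 on the plus strand. Its level was 303 and 291 CPM in WT static cultures, 215 and 280 in WT stretch, 149 and 182 in CAV1-/- static, and 124 and 154 in CAV1-/- stretch. Each CAV1-/- culture lay below each WT culture. The WT mean was 1.80-fold higher without stretch and 1.78-fold higher with stretch. The log2 differences were -0.85 (SE 0.19, 95% interval -1.30 to -0.39, adjusted p = 0.221) and -0.82 (SE 0.19, 95% interval -1.28 to -0.36, adjusted p = 0.352, limma). Without CAV1-/- replicate 1 they were -0.70 and -0.67, and both still passed the unadjusted threshold.

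Itga7 was also lower on stretch in 4 of 4 animals, as were 16.9% of all genes tested, though by little. The log2 fold change was -0.27 in WT (95% interval -0.73 to 0.18) and -0.25 in CAV1-/- MCs (95% interval -0.70 to 0.21, limma). Single libraries moved both, to -0.085 without WT stretch replicate 1 and -0.46 without WT stretch replicate 2, and to -0.093 without CAV1-/- stretch replicate 1 and -0.40 without CAV1-/- stretch replicate 2. The average of -0.26 had an interval of -0.58 to 0.06, or of -0.44 to -0.08 with the animal as a block, where it passed the unadjusted but not the adjusted threshold (adjusted p = 0.116, limma). Of 6 listed skeletal muscle genes 2 had a row, with Myh3 at 0.247 to 1.85 CPM and Acta1, the skeletal α-actin, at 6.37 to 1231 CPM and highest in CAV1-/- replicate 1, where Itga7 was lowest. The 7 smooth muscle and pericyte markers with a row, of 8 listed, summed to 269 to 720 CPM in WT and 456 to 1347 CPM in CAV1-/- libraries. One of them, Cspg4, was highest in WT replicate 2 (39.3 and 74.2 CPM) and ran from 3.70 to 23.1 CPM in CAV1-/- libraries. The part of muscle cells or pericytes in the level of Itga7 was not tested. Itga7 shares 9 exonic bases with Mettl7b on the other strand, and the library kit named in the labels is not described as keeping strand.

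Itga3 encodes α3, the chain of the main receptor for laminins of epithelial basement membranes, at chr11:95044474-95076801 on the minus strand. Its level was 476 and 308 CPM in WT static cultures, 325 and 213 in WT stretch, 237 and 145 in CAV1-/- static, and 265 and 110 in CAV1-/- stretch. Without stretch both CAV1-/- cultures lay below both WT cultures, whereas with stretch the groups overlapped, and replicate 1 was the higher culture in each group. The log2 difference between genotypes was -1.04 without stretch (SE 0.49, 95% interval -2.24 to 0.16, adjusted p = 0.690, limma) and -0.62 with stretch (SE 0.49, 95% interval -1.82 to 0.58, limma). Without CAV1-/- replicate 1 both passed the unadjusted threshold, at -1.40 and -1.25, while without CAV1-/- stretch replicate 2 the value with stretch was 0.012 (limma). On stretch, Itga3 was lower in 3 of 4 animals, with log2 fold changes of -0.54 in WT (95% interval -1.74 to 0.66, or -0.86 to -0.22 with the animal as a block) and -0.12 in CAV1-/- MCs (95% interval -1.32 to 1.08, limma). The WT value was -0.23 without WT static replicate 1 and -0.85 without WT static replicate 2.

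Itga6 passed the test in none of the 4 comparisons. It encodes α6, a laminin receptor chain that pairs with β1 or β4, at chr2:71745616-71858416 on the plus strand. Its level was 121 and 58.5 CPM in WT static cultures, 72.7 and 63.3 in WT stretch, 91.6 and 48.6 in CAV1-/- static, and 70.1 and 58.7 in CAV1-/- stretch. The groups overlapped in all 4 comparisons. The log2 differences were -0.31 and -0.06 on stretch and -0.33 and -0.08 between genotypes, none past the unadjusted threshold, and the 95% interval between genotypes without stretch ran from -1.34 to 0.68 (limma). The genotype differences were -0.78 and -0.20 without CAV1-/- replicate 1 and did not pass.

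Itgb4 was lower in CAV1-/- than in WT MCs. It encodes β4, which pairs with α6 and binds plectin in hemidesmosomes, at chr11:115974709-116008412 on the plus strand. Its level was 19.4 and 11.7 CPM in WT static cultures, 11.9 and 15.2 in WT stretch, 3.71 and 1.85 in CAV1-/- static, and 5.87 and 1.31 in CAV1-/- stretch. Each CAV1-/- culture lay below each WT culture, with the fewest reads, 18, in CAV1-/- static replicate 2. The WT mean was 5.59-fold higher without stretch, with a log2 difference of -2.13 (SE 0.56, 95% interval -3.50 to -0.77, adjusted p = 0.324, limma). With stretch it was 3.76-fold higher, with a log2 difference of -1.86 (SE 0.56, 95% interval -3.22 to -0.49, adjusted p = 0.551, limma). Without CAV1-/- replicate 1 the differences were -2.50 and -2.64. Leaving out WT static replicate 1 gave -1.79 without stretch, and leaving out WT stretch replicate 2 or CAV1-/- stretch replicate 2 gave -1.69 or -1.07 with stretch, none of which passed the unadjusted threshold (limma).

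On stretch Itgb4 had no common direction, since 2 of 4 animals were higher. Relative to α6, its only partner, Itgb4 per kb was 0.206 and 0.257 of Itga6 in WT static, 0.210 and 0.308 in WT stretch, 0.0521 and 0.0490 in CAV1-/- static, and 0.108 and 0.0288 in CAV1-/- stretch cultures, again with no overlap between genotypes. Krt14, a keratin of stratified epithelia and the only one of 4 listed genes of that cell type with a row, was at 98.1 to 165 CPM in WT and 1.40 to 6.13 CPM in CAV1-/- libraries. The part of Krt14-expressing cells in the result was not tested. Itgb4 shares 537 exonic bases with the noncoding RNA B230344G16Rik on the other strand, and where strand is not kept reads from both cannot be told apart.

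**Figure D3:**
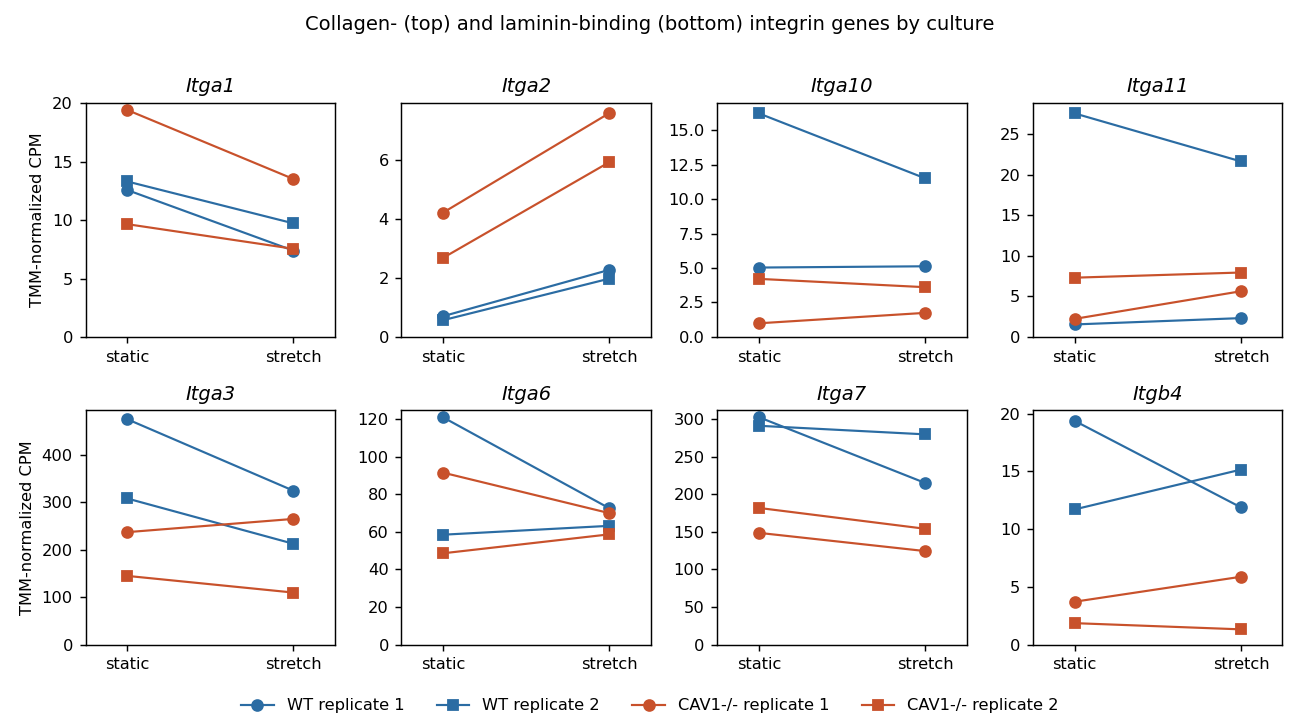
TMM-normalized CPM of the 8 integrin genes in each culture, with collagen-binding genes in the top row, laminin-binding genes and Itgb4 in the bottom row, and a line joining the static and the stretched culture of each animal. Itga2 climbs from static to stretch along all 4 lines with CAV1-/- above WT, Itga7 and Itgb4 lie lower in CAV1-/- cultures, and Itga11 is set mainly by the WT animal of replicate 2 (27.5 and 21.6 CPM).

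The median log2 difference over the 8 genes was -0.25 on stretch in WT and 0.03 in CAV1-/- MCs, and -0.78 and -0.40 between genotypes without and with stretch, beside medians over all genes between -0.02 and 0.00. With stretch the median between genotypes was -0.67 by edgeR and -0.66 by DESeq2, and that on stretch in CAV1-/- MCs was 0.013 and 0.0046. The medians between genotypes were -0.74 and -0.44 without CAV1-/- replicate 1. The genotype by stretch interaction was positive for 7 of the 8 genes (6 by DESeq2), with a median of 0.27 beside 0.01 over all genes, but no member passed unadjusted p at most 0.05, where 0.483% of all genes did (limma). Without overlap, 1 member was higher and 4 lower in CAV1-/- than in WT static cultures, where 16.1% and 20.8% of all genes were, and 1 was higher and 3 lower with stretch, where 14.6% and 15.9% were. On stretch 1 member was higher and 2 lower without overlap in WT MCs (13.9% and 17.2% of all genes), and 1 was higher in CAV1-/- MCs (12.4%). The comparisons share cultures or, for genotype without and with stretch, animals, so these counts do not stand independently of each other.

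**Figure D4:**
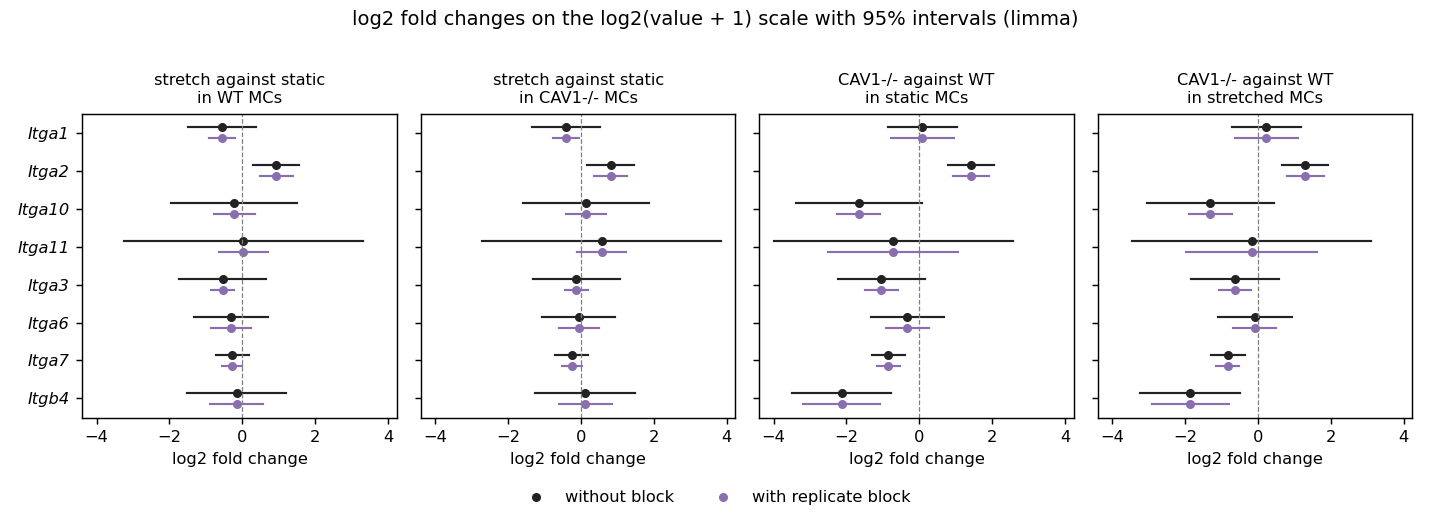
Log2 fold changes of the 8 integrin genes on the log2(CPM + 1) scale with 95% intervals in the 4 comparisons, from limma without a block (black) and with the replicate block (purple). The block is the animal in the stretch panels and only the replicate number in the genotype panels. Without the block the intervals of Itga2 lie above 0 in all 4 panels, and those of Itga7 and Itgb4 lie below 0 in both genotype panels.

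The common partner Itgb1 was at 1886 and 1228 CPM in WT static cultures, 2634 and 1574 in WT stretch, 2917 and 1329 in CAV1-/- static, and 3802 and 1710 in CAV1-/- stretch. It was higher on stretch in 4 of 4 animals, as were 14.5% of all genes tested. The average log2 fold change was 0.40 (SE 0.40, adjusted p = 0.994, limma). With the animal as a block Itgb1 had an adjusted p of 0.0443 (limma), and 2.25% of all genes passed adjustment in that fit. Between genotypes it differed by 0.37 and 0.32, within the spread between animals, and without CAV1-/- replicate 1 by -0.20 and -0.25. Per kb, Itgb1 was 3.39 and 2.85 times the sum of the 7 α genes in WT static, 6.89 and 4.48 times in WT stretch, 9.88 and 5.78 times in CAV1-/- static, and 12.8 and 8.68 times in CAV1-/- stretch cultures. The ratio was higher on stretch in each animal and higher in CAV1-/- than in WT MCs within each condition. The sum holds only these 7 genes, so the ratio is not that of Itgb1 to all α genes. Itga5, an α gene outside the sum, averaged 524 and 858 CPM in WT static and stretch cultures. In CAV1-/- static and stretch cultures it averaged 1126 and 1740 CPM.

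Of 7 genes tested on the list of Itgb1 and other receptors for the same ligands, 2 passed unadjusted p between genotypes in both conditions, Bcam and Dag1, both lower in CAV1-/- MCs, beside the 8.17% and 6.26% of all genes given above. Bcam, the Lutheran receptor for laminin α5, had 86.7 and 51.0 CPM in WT static, 50.0 and 30.7 in WT stretch, 30.2 and 18.0 in CAV1-/- static, and 17.6 and 8.54 in CAV1-/- stretch cultures. Its log2 difference between genotypes was -1.47 without stretch (adjusted p = 0.446) and -1.59 with stretch (adjusted p = 0.515), and its average stretch effect was -0.81 (adjusted p = 0.984, or 0.0129 with the animal as a block, limma). Dag1, which encodes dystroglycan, had 502 and 402 CPM in WT static and 256 and 240 CPM in CAV1-/- static cultures, a log2 difference of -0.86 (adjusted p = 0.123), and differed by -0.56 with stretch (adjusted p = 0.456, limma). Both still passed the unadjusted threshold without CAV1-/- replicate 1, at -1.83 and -2.08 for Bcam and -0.90 and -0.65 for Dag1. On stretch without the block, Dag1 was the 1 gene of this list that passed in WT MCs (-0.38, adjusted p = 1, limma), where 2.27% of all genes did. With the animal as a block 5 passed in WT and 3 in CAV1-/- MCs, where 14.5% and 13.3% of all genes did. The collagen receptor kinases Ddr1 and Ddr2 did not pass, with log2 differences between genotypes of -0.47 and -0.12 without stretch and -0.43 and 0.06 with stretch, or -0.53, -0.31, -0.72 and 0.0099 in the same order without CAV1-/- replicate 1. On stretch, Ddr1 differed by -0.35 in WT and -0.31 in CAV1-/- MCs and passed the unadjusted threshold in both with the animal as a block, but not without it.

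Among 7 tetraspanins and hemidesmosome genes tested, Cd82, a tetraspanin, passed unadjusted p as lower in CAV1-/- MCs without stretch (-1.14, adjusted p = 0.240, limma) and with stretch (-0.86, SE 0.26), and Dst, a linker to the cytoskeleton, passed as higher with stretch (0.78, adjusted p = 0.719, limma). These are 1 and 2 of 7 genes, where 8.17% and 6.26% of all genes passed. With CAV1-/- replicate 1 left out, Cd82 passed without stretch (-1.01) but not with stretch (-0.66), and Dst (0.64) did not pass. Cd151, the tetraspanin that binds laminin-binding integrins, differed by -0.26 in both conditions, or by -0.58 and -0.65 without that animal, and did not pass. Plec, which encodes plectin, the link from β4 to keratin filaments, differed by -0.44 without stretch (SE 0.35) and by 0.37 with stretch (SE 0.35), or by -0.69 and 0.12 without that animal, and did not pass. On stretch no gene of this list passed without the block. With it 4 passed in WT and 1 in CAV1-/- MCs, where 14.5% and 13.3% of all genes did.

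Of 20 activators, inhibitors and adaptors, which couple integrins to actin, 1 passed between genotypes, Tln2, a talin, as higher with stretch (0.82, adjusted p = 0.220, limma), where 6.26% of all genes passed, so the share of the list was no larger than that of all genes. It was 0.98 and still passed without CAV1-/- replicate 1. On stretch none of the 20 passed without the block. With the animal as a block 5 passed as lower in WT MCs, where 8.42% of all genes did, among them Vcl, which encodes vinculin (-0.53, adjusted p = 0.162, limma). In CAV1-/- MCs 1 passed in each direction, where 6.58% of all genes did as higher and 6.77% as lower.

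The ligand genes were measured in the same cultures. Of 10 laminin chains tested, 7 were lower in CAV1-/- than in WT static cultures and 5 of them passed unadjusted p, with a list median of -0.89, where 5.42% of all genes passed as lower. Lama5, the α chain of adult basement membranes, had 370 and 423 CPM in WT static and 105 and 69.9 CPM in CAV1-/- static cultures (log2 difference -2.19, adjusted p = 0.218, limma). Lama3, a chain of the hemidesmosomal laminin that α6β4 binds, differed by -2.65 (adjusted p = 0.284, limma). The list median was -0.88 without CAV1-/- replicate 1, and 2 chains passed as lower, with Lama5 at -2.48, while Lama3 at -2.60 no longer passed. With stretch, Lama5 (-1.44, SE 0.48) passed unadjusted p as lower and Lamb1 (0.39, SE 0.16) as higher, and without that animal both still did (-2.02 and 0.43). On stretch, 9 of 10 laminin chains were lower in WT MCs, with a median of -0.53, and none passed without the block. With the animal as a block 6 passed as lower in WT MCs, beside 8.42% of all genes, among them Lama5 (-1.10, adjusted p = 0.167) and Lamb2 (-0.54, adjusted p = 0.226, limma). In CAV1-/- MCs 1 passed as lower, beside 6.77% of all genes.

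Of 17 collagen chains tested, none passed between genotypes without stretch, and 2 passed as higher with stretch, where 2.44% of all genes did. These were Col5a3 (1.56, adjusted p = 0.783) and Col5a1 (0.95, adjusted p = 0.745), which encode chains of the fibril-nucleating collagen V (limma). They were 2.05 and 1.14 without CAV1-/- replicate 1 and no longer passed, and the list median turned from -0.26 to 0.16 without stretch and from -0.15 to 0.41 with stretch. Col4a6, a chain of basement membrane collagen IV, was lower on stretch in WT (-1.04, SE 0.25) and in CAV1-/- MCs (-0.85, SE 0.25), past the unadjusted threshold in both (adjusted p = 1 in each, limma). In these comparisons 2.27% and 2.09% of all genes passed. With the animal as a block the average stretch effects of Col4a6 (-0.95), Col4a5 (-0.56), Col3a1 (-0.97) and Col5a3 (0.75) passed adjustment, with adjusted p of 0.0170, 0.0179, 0.0477 and 0.0162 (limma), 4 of 17 genes beside 2.25% of all genes. At the unadjusted threshold 7 collagen chains passed with the block in WT and 7 in CAV1-/- MCs, where 14.5% and 13.3% of all genes did.

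Of 14 other integrin subunits tested, 1 passed unadjusted p between genotypes in each condition, where 8.17% and 6.26% of all genes did. The share of the list was therefore close to that of all genes. That gene, Itga5, the fibronectin receptor chain, was higher in CAV1-/- MCs without stretch (1.06, adjusted p = 0.376) and with stretch (1.03, adjusted p = 0.516, limma). The difference was 0.69 without CAV1-/- replicate 1 and no longer passed without stretch, and it was 0.86 and still passed with stretch. Its average stretch effect was 0.68 (SE 0.21, adjusted p = 0.984, or 0.0209 with the animal as a block), and with the block Itgb3 (1.14) and Itgav (0.41), which together form a vitronectin receptor, had adjusted p of 0.0164 and 0.0464 (limma), 3 of 14 genes beside 2.25% of all genes. At the unadjusted threshold 5 passed on stretch with the block in each genotype, where 14.5% of all genes did in WT and 13.3% in CAV1-/- MCs, and none without it. The list median between genotypes was 0.80 without stretch and 0.84 with stretch, and 0.53 and 0.61 without CAV1-/- replicate 1, whose leukocyte markers were high. Several of the subunits are leukocyte integrins, and the part of leukocytes in these medians was not tested.

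**Figure D5:**
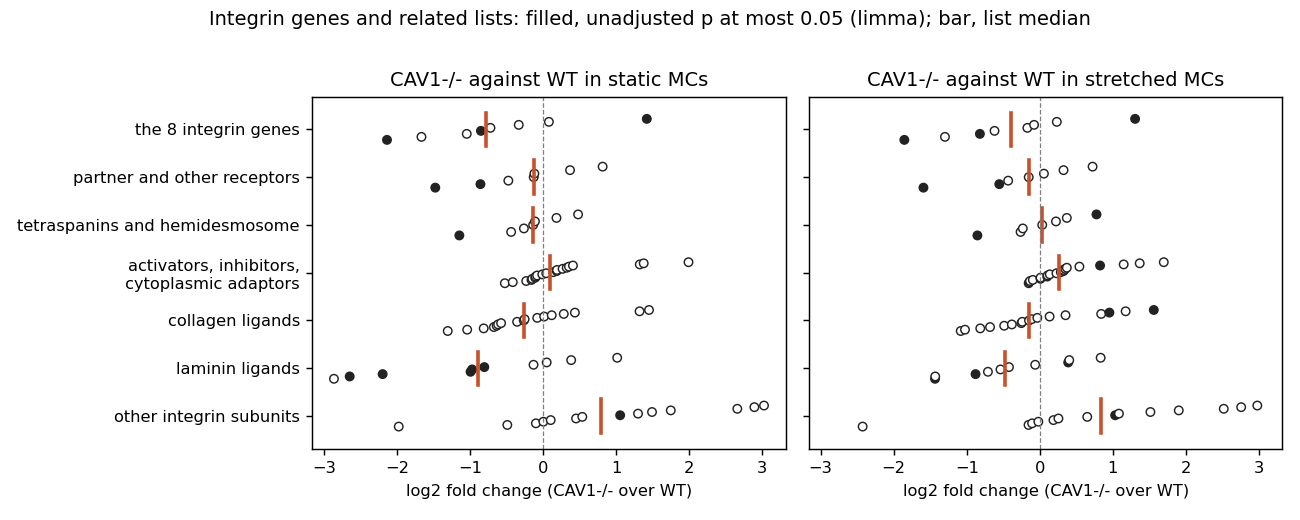
Log2 fold changes between CAV1-/- and WT MCs for the 8 integrin genes and 6 lists of related genes, without stretch on the left and with stretch on the right, with filled points for unadjusted p at most 0.05 and an orange bar for each list's median. The medians of the 8 genes (-0.78 and -0.40) and of the laminin ligands (-0.89 and -0.48) lie below 0. Those of the collagen ligands (-0.26 and -0.15) and of the partner and other receptors (-0.13 and -0.15) also do. The medians of the other integrin subunits and of the activators, inhibitors and adaptors (0.09 and 0.26) lie above 0. That of the tetraspanins and hemidesmosome genes changes sign (-0.13 and 0.03).

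Genes with the most similar pattern were sought by Pearson correlation of log2 values over the 8 libraries, which come from 4 animals, among genes with a mean of at least 5 CPM. For Itga2 these were Itga5 (r = 0.979) and Map4k5 (r = 0.977), for Itga1 Polr2j (0.991) and Uqcrc1 (0.950), for Itga10 Adamts10 (0.997) and 4931406P16Rik (0.983), and for Itga11 Pcbp4 (0.973) and Zfp319 (0.966). For Itga7 Eps8 (0.994) was the most similar, for Itgb4 they were Tppp (0.991) and Slc39a8 (0.987), for Itga3 Wwc1 (0.989) and Sugp2 (0.980), and for Itga6 Akap2 (0.970) and Phf8 (0.964). These are descriptions of 8 points that share animals, and 10796 genes were searched (10797 for Itga2).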

How the data were processed

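RNAseq data came from 8 libraries of primary mouse peritoneal MCs, grouped by the labels for genotype, condition and animal. The authors trimmed 61-base reads with Cutadapt, discarded those under 30 bp, mapped the rest to the GRCm38 transcriptome, estimated expected counts with RSEM and normalized them by TMM in edgeR. The deposited table holds this signal as TMM-normalized CPM. All values were whole multiples of 1 constant per library (100% within 0.01 read), so reads were recovered, which gave the depths, and intervals and floors of 3 reads cover counting error only.

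A pseudocount of 1 was added, genes with at least 1 CPM in at least 2 libraries were kept (22 removed), and limma (3.58.1, R 4.3.3) with eBayes and an intensity trend was fitted to log2 values with 1 mean per group. The 6 comparisons were stretch against static in each genotype, their average, CAV1-/- against WT in each condition, and the interaction. The tests for stretch in WT MCs and for genotype without stretch were also run on simulated data. The spread between animals was set there and not taken from these libraries, so error rates for these cultures do not follow from it. Exact permutation tests cannot go below p = 0.333 for 2 against 2 cultures or 0.125 for 4 pairs. Static and stretched cultures of 1 number came from the same animal, and their deviations correlated (r = 0.703 in WT, 0.850 in CAV1-/-), so the replicate block is given for stretch, for the members and as counts for the lists, where it changes a call. The genotype comparisons without and with stretch use cultures of the same animals. Their spread was taken from all cultures as if each came from a separate animal. The genotype p-values and intervals do not allow for this pairing.

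Alternatives were a pseudocount of 0.1, no filter, a mean of at least 5, median-of-ratios rescaling, edgeR (4.0.16) and DESeq2 (1.42.0) on recovered reads, the replicate block, leaving out libraries or CAV1-/- replicate 1, and another transcript length. GENCODE M21 (GRCm38) gave lengths, positions and overlaps and held 13597 of the 13687 identifiers. Promoter entries matched Itga1, Itga2, Itga10, Itga11, Itga3 and Itgb1, not Itga6, Itga7 or Itgb4. The members and gene lists were chosen with earlier results of these data known. Named were all 8 genes, Itgb1, Ddr1, Ddr2, Dag1, Cd151 and Plec, list genes past adjusted p with or without the block, otherwise at most 3 per list and comparison by unadjusted p, the 2 most similar genes per member, Cav1 and markers beside results. Some genes that this rule names are not reported here. The 4 of 7 endothelial markers with a row summed to 2.85 to 17.6 CPM, and none of 4 Schwann cell markers had a row.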

Additional observations from a re-analysis of the deposited data

How the results depend on the processing

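Over the alternatives other than leaving out 1 library, 267 log2 fold changes of the 8 genes kept their direction and their side of the unadjusted threshold, 14 came to pass it, 1 no longer passed and 8 changed sign. With 1 library left out these numbers were 253, 7, 7 and 29. Counts of members past unadjusted p changed to 0 under a mean of at least 5 for stretch in WT, stretch in CAV1-/- and average stretch, since Itga2 is then not tested. DESeq2 gave 0 for stretch in CAV1-/- MCs (Itga2 at 0.95 then missed the threshold) and 5 without stretch between genotypes. With the replicate block the counts were 3, 2, 5, 5 and 4 for stretch in WT, stretch in CAV1-/-, genotype without and with stretch, and average stretch. Genes past adjusted p by DESeq2 numbered 3, 7, 309, 237 and 34 in the same order, with the replicate block 1 for stretch in CAV1-/-, 246 and 110 for genotype and 308 for average stretch, with edgeR 2 for genotype without stretch, and 0 for genotype in both conditions without CAV1-/- replicate 1. For genotype, same-numbered cultures come from different animals and share only a number. Their deviations correlated (r = 0.522 and 0.484), and the replicate block gave adjusted p of 0.0382 for Itga2, 0.0382 for Itga10 and 0.0438 for Itga7 without stretch (1.8% of all genes called) and none with stretch (limma). This block joins unrelated animals by number and still counts the 2 cultures of 1 animal as independent, so these 3 calls are not read as results. With the animal as a block no call of the interaction changed.

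Leaving out 1 library at a time gave 0 to 8 genes past adjusted p for genotype without stretch and 0 to 7 with stretch, and 0 to 1 members for stretch in WT, 0 to 1 in CAV1-/- and 1 to 2 for the average. Values near 0 changed sign. For stretch in WT MCs the ranges were -0.98 to 0.54 for Itga10, -1.72 to 1.77 for Itga11, -0.83 to 0.21 for Itga6 and -0.50 to 0.18 for Itgb4. For stretch in CAV1-/- MCs they were -0.88 to 0.064 for Itga1, -0.55 to 0.84 for Itga10, -0.11 to 1.25 for Itga11, -0.75 to 0.51 for Itga3, -0.51 to 0.39 for Itga6 and -0.66 to 0.91 for Itgb4. Between genotypes without stretch they were -0.39 to 0.55 for Itga1, -2.46 to 1.03 for Itga11 and -0.85 to 0.19 for Itga6, and with stretch -0.15 to 0.61 for Itga1, -1.56 to 1.21 for Itga11, -1.25 to 0.012 for Itga3 and -0.20 to 0.046 for Itga6. The interaction of Itga2 ranged from -0.37 to 0.13. The average stretch effects kept their sign, with -0.72 to -0.25 for Itga1, -0.65 to -0.014 for Itga3 and -0.35 to -0.17 for Itga7. Without CAV1-/- replicate 1 the stretch effect in CAV1-/- MCs was -0.18 for Itga10, 0.27 for Itga6 and -0.30 for Itgb4, and the genotype difference was -0.39 without and -0.15 with stretch for Itga1 and 0.045 with stretch for Itga11. Itga11 on stretch in WT MCs was -0.28 by edgeR and -0.27 by DESeq2. The causes were not tested. Divided by the median coding transcript length instead of the exon length, levels were 943 for Itgb1, 52.9 for Itga7, 17.6 for Itga6, 1.06 for Itga1 and 0.852 CPM per kb for Itga2, and the order of the 9 genes was the same. With 2 animals per genotype, and 7 to 156 reads for Itga2 and 18 to 277 for Itgb4, small differences were not detectable at this depth.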
